A study of Homo sapiens with 9 samples.

Results

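Activator protein 1 (AP-1) is a family of dimeric transcription factors, and the 10 genes described here encode subunits of it or close basic leucine zipper partners. They are identified by gene name: FOS, FOSB, FOSL1 and FOSL2 of the FOS family, JUN, JUNB and JUND of the JUN family, and ATF3, BATF3 and MAFF, out of 58735 genes in the deposited table. The RNA came from MIA PaCa-2, a human pancreatic cancer cell line whose samples are labelled wild type for genotype, with no engineered allele in any group. The cells were treated for 24-h with 0.1% dimethyl sulfoxide (DMSO, the vehicle), with 1 μM SCH772984, an inhibitor of ERK1/2, or with 1 μM compound 1, an inhibitor of TBK1 and IKKε. Each treatment has 3 libraries. The comparison with SCH772984 asks how AP-1 subunit transcripts depend on ERK activity, and the comparison with compound 1 asks the same of TBK1 and IKKε.

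AP-1 binds DNA as a dimer of basic leucine zipper proteins. JUN proteins pair with each other or with FOS proteins, whereas FOS proteins need a JUN partner, so the mixture of subunits in a cell sets which dimers can form. Several of these genes are immediate early genes: growth factors and stress switch them on within minutes through ERK, JNK and p38, kinases that act on the factors already sitting on the FOS and JUN promoters. ERK also phosphorylates FOS and FOSL1 proteins and slows their breakdown. In epithelial cancers, FOSL1 is known for its link to invasion.

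Total counts were 9464432 to 10286223 per library with DMSO, 9652741 to 9840769 with compound 1 and 11056977 to 13887859 with SCH772984. Among the markers of the labelled cell type, KRT8, KRT18, KRT19, VIM and SOX9 were present in all 9 libraries. EPCAM and CFTR had 0 counts in each of them, KRT7 had 0 to 5 counts and CDH1 at most 5. Markers of acinar cells (CPA1 and PRSS1) and leukocytes (PTPRC) had 0 counts in all 9 libraries, and PECAM1, a marker of endothelium, had 0 or 1. Several of these values differed with SCH772984: KRT8 (2410 to 2550 CPM, a count relative to the normalized depth of its library, with DMSO and 722 to 816 with SCH772984), KRT18 (826 to 912 and 155 to 175 CPM), SOX9 (123 to 128 and 53.6 to 57.1 CPM), VIM (2400 to 2580 and 1930 to 2280 CPM), CDH1 (0 counts and 4 to 5 counts), the fibroblast gene COL3A1 (6.45 to 7.78 and 40.2 to 50.3 CPM), COL1A1 (1 to 4 and 28 to 48 counts) and the mitochondrial share of counts (3.33% to 3.98% and 6.23% to 7.52%). KRT19 overlapped, at 227 to 278 CPM with DMSO and 251 to 288 with SCH772984. The part of these values in the results was not tested. Compound 1 replicate 1 stood apart from the other compound 1 libraries: the chi-square of its counts over genes, divided by the degrees of freedom, was 10.1 and 7.61 against replicates 2 and 3, which had 2.66 against each other. The values of the members and of the lists without it are given beside the compound 1 results. Nothing in the labels says that the 3 libraries of a treatment came from separate cultures, so p-values measure only the spread between these samples. In a bulk sample, fewer cells of a type and less RNA per cell cannot be told apart.

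Promoter stretches are shown for 4 members because AP-1 and ATF proteins are known to bind the promoters of their own genes. The letters are from RefSeq on GRCh38.p14, and 8 of the 10 members have a promoter entry. FOSL1 and BATF3 were not among them. The 250 bases before each start site were searched on both strands for the cyclic AMP response element TGACGTCA, the JUN and ATF3 form of it TGACATCA, the second JUN element TTACCTCA, and the AP-1 element TGACTCA, which on the opposite strand reads TGAGTCA. Capitals mark the match, and each line reads 5′ to 3′ on the gene's strand.
JUND, chr19:18281804-18281833, minus strand: ggccgcccccaTGACGTCAacccacaaggc
MAFF, chr22:38201929-38201958, plus strand: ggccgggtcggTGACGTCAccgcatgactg
JUN, chr1:58784096-58784125, minus strand: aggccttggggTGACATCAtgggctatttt
JUN, chr1:58784215-58784244, minus strand: gcagcggagcaTTACCTCAtcccgtgagcc
ATF3, chr1:212565273-212565302, plus strand: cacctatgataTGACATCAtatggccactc

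The match began 200 bases before the RefSeq start site in JUND, 54 in MAFF, 67 and 186 in JUN and 123 in ATF3. Both JUN stretches lie inside the JUN gene as GENCODE release 29 annotates it, and the MAFF stretch lies inside the MAFF gene. TGACGTCA was found in 1.65% of 35116 RefSeq promoters of the same length, TGACATCA in 2.37%, TTACCTCA in 0.644% and TGACTCA in 4.2%. No member with an entry held TGACTCA in this window. A match describes these letters and is not evidence of binding.

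Per length of gene, JUN and FOSL1 were the most abundant members in DMSO. Levels between genes are compared as RPKM, the normalized CPM divided by the gene length in the deposited table. For FOSL2 (7157 bases) and MAFF (5615 bases) this length equals all exonic bases of the gene, not the length of a single transcript. The order depends on this division: in CPM with DMSO, FOSL2 (117) was above FOSL1 (104). With DMSO, JUN was at 70.3 ± 2.04 RPKM (SD, n = 3 throughout), FOSL1 at 55.2 ± 1.63, JUND at 34.8 ± 4.6, FOSL2 at 16.3 ± 0.162, JUNB at 12.9 ± 0.524 and MAFF at 3.97 ± 0.16. ATF3 (0.832 ± 0.0758), FOS (0.758 ± 0.322), BATF3 (0.315 ± 0.063) and FOSB (0.0653 ± 0.0637) were low. Neighbours in this order did not overlap in their 3 libraries, except for ATF3 and FOS.

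With SCH772984 the order was different. JUND came first at 73.2 ± 5.86 RPKM, followed by JUNB at 21.0 ± 3.08, JUN at 18.5 ± 2.04 and FOSL2 at 15.6 ± 1.52, and each of the last 3 overlapped with its neighbour. ATF3 was at 2.38 ± 0.417 and FOS at 1.1 ± 0.226. FOS, MAFF (0.877 ± 0.0895) and FOSL1 (0.861 ± 0.496) overlapped, as did FOSB (0.21 ± 0.0785) and BATF3 (0.175 ± 0.0781). By RPKM, FOSL1 thus went from rank 2 of the 10 members with DMSO to rank 8. With compound 1, JUN (71.4 ± 5.56 RPKM), FOSL1 (47.3 ± 5.08) and JUND (34.6 ± 7.14) stayed the highest 3, with overlap between FOSL1 and JUND, and JUNB (17.3 ± 2.07) was above FOSL2 (13.2 ± 0.599) without overlap, the reverse of their order with DMSO.

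**Figure D1:**
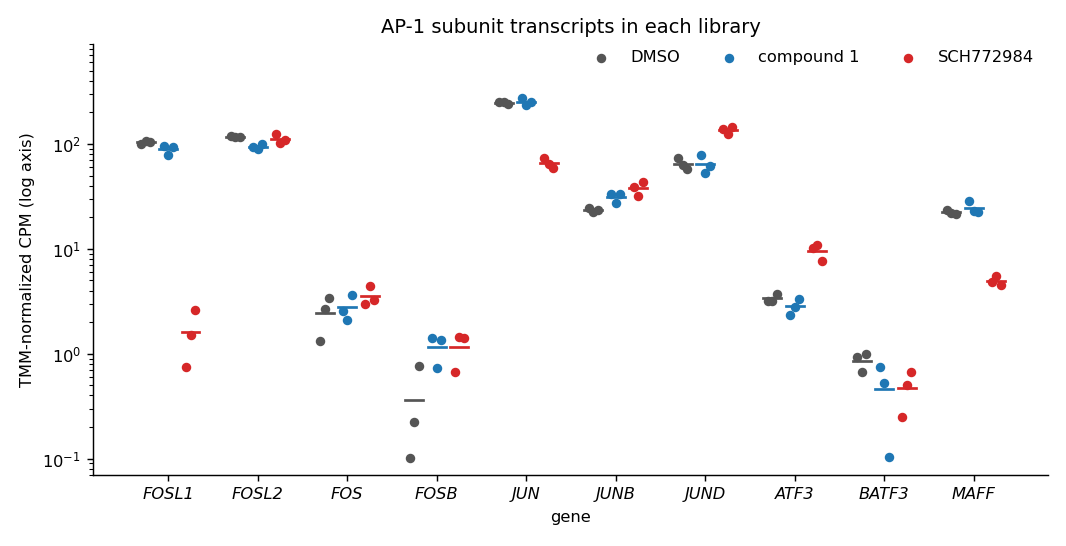
Level of each of the 10 AP-1 subunit transcripts in each library, in TMM-normalized CPM on a log axis (points, 3 libraries per treatment; bars, means). FOSL1 lies between 101 and 107 CPM with DMSO and between 0.746 and 2.61 CPM with SCH772984, whereas the compound 1 points lie near the DMSO points for most genes.

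SCH772984 against DMSO split the AP-1 subunits in both directions. FOSL1, JUN and MAFF fell, JUND, JUNB and ATF3 rose, and FOS and FOSL2 did not pass the test. Of the 10 members, 8 had enough counts to be tested, and 6 of these were called at a Benjamini-Hochberg adjusted p under 0.05 over all genes (edgeR quasi-likelihood test). This share stands beside 72.8% of all 13834 genes tested, of which 37.2% were higher and 35.5% lower, so being called is by itself no mark of these genes. At a change of at least 2-fold as well, 5 members were called, beside 28.8% of all genes (18.2% higher and 10.6% lower). The median log2 fold change was 0.23 over the 8 tested members, whose changes went both ways, and 0.03 over all genes. It changed with the libraries, the members tested and the scaling. It was 0.57 without DMSO replicate 2, 0.69 without DMSO replicate 3 and 0.62 without SCH772984 replicate 1, where FOSB also entered the test. It was 0.17 without SCH772984 replicate 2. The joint fit of all 9 libraries, with 9 members tested, gave 0.54. Library size alone gave 0.41, and a minimum of 10 counts in every library gave 0.61. Without DMSO replicate 3, 5 members were higher, FOS and FOSB in addition. The libraries of the treatments did not overlap for 6 members, beside 74.4% of all genes tested.

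FOSL1 (ENSG00000175592, chr11:65892049-65900573, minus strand, GRCh38), which encodes FRA-1, had the largest change of the members. Its level was 101, 107 and 104 CPM with DMSO, 96.0, 78.3 and 93.5 CPM with compound 1 and 0.746, 1.52 and 2.61 CPM with SCH772984, in which 9, 18 and 39 reads were counted. All 3 SCH772984 libraries were far below the others. The fall was 61.4-fold (log2 fold change -5.94, SE 0.15, 95% interval -6.26 to -5.64, adjusted p = 5.09e-26), the fifth lowest of the 13834 log2 fold changes. Leaving out single libraries gave values from -6.52 (without SCH772984 replicate 3) to -5.63 (without SCH772984 replicate 1), a wider range than this interval.

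JUN (ENSG00000177606, chr1:58780788-58784327, minus strand), a gene with a single exon that encodes the c-Jun protein, was at 253, 253 and 240 CPM with DMSO, 273, 234 and 252 CPM with compound 1 and 73.6, 63.8 and 59.5 CPM with SCH772984. The SCH772984 libraries lay below all others and the remaining groups overlapped. JUN fell 3.81-fold with SCH772984 (log2 fold change -1.93, SE 0.07, 95% interval -2.07 to -1.78, adjusted p = 4.89e-27). MAFF (ENSG00000185022, chr22:38200767-38216511, plus strand) encodes a small MAF protein, which lacks a transactivation domain. Its levels were 23.3, 21.8 and 21.7 CPM with DMSO, 28.7, 23.0 and 22.6 CPM with compound 1 and 4.81, 5.47 and 4.48 CPM with SCH772984, again with no overlap for SCH772984. MAFF fell 4.56-fold (log2 fold change -2.19, SE 0.15, adjusted p = 2.45e-17). PLA2G6, which overlaps MAFF on the opposite strand without sharing exonic bases, had 15 to 28 counts with DMSO and 89 to 132 with SCH772984, the other direction.

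The other JUN family members rose. JUND (ENSG00000130522, chr19:18279760-18281622, minus strand), a subunit that is usually present in resting cells and can slow growth, was at 74.1, 63.0 and 57.3 CPM with DMSO, 79.0, 52.9 and 61.3 CPM with compound 1 and 140, 124 and 145 CPM with SCH772984. Its rise was 2.1-fold with no overlap (log2 fold change 1.07, SE 0.08, 95% interval 0.91 to 1.23, adjusted p = 6.41e-15). JUNB (ENSG00000171223, chr19:12791496-12793315, plus strand), a weaker activator than JUN that can oppose it, was at 24.3, 22.4 and 23.6 CPM with DMSO, 33.6, 27.1 and 33.6 CPM with compound 1 and 39.2, 32.2 and 43.2 CPM with SCH772984. All 6 inhibitor libraries were above the DMSO libraries, and those of the inhibitors overlapped. JUNB rose 1.63-fold with SCH772984 (log2 fold change 0.71, SE 0.10, adjusted p = 8.4e-08). JUNB shares 259 exonic bases (14.2% of its length) with HOOK2 on the opposite strand, which had 51 to 69 counts with DMSO and 359 to 499 with SCH772984, beside 203 to 237 and 382 to 646 for JUNB. Whether counting used the strand is not given in the sources used here, so reads from the shared bases cannot be assigned, and their part in the change of JUNB was not tested.

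ATF3 (ENSG00000162772, chr1:212565334-212620777, plus strand) is a stress-induced subunit that represses transcription as a homodimer. It was at 3.17, 3.2 and 3.72 CPM with DMSO, 2.36, 2.81 and 3.32 CPM with compound 1 and 10.3, 10.9 and 7.7 CPM with SCH772984. The SCH772984 libraries were above the others, and ATF3 rose 2.83-fold (log2 fold change 1.5, SE 0.20, 95% interval 1.09 to 1.92, adjusted p = 1.24e-08). The promoter stretches above group differently from these changes: of the pair with TGACGTCA, JUND rose and MAFF fell, and of the pair with TGACATCA, ATF3 rose and JUN fell.

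FOSL2 (ENSG00000075426, chr2:28392448-28417312, plus strand), which encodes FRA-2, the closest relative of FRA-1, was at 118, 117 and 116 CPM with DMSO and 124, 103 and 109 CPM with SCH772984, which overlapped. Its log2 fold change was -0.07 (SE 0.07, 95% interval -0.21 to 0.08, adjusted p = 0.405). When libraries were scaled by their total counts alone, a choice that moved the median of all genes by 0.17, the log2 fold change of FOSL2 was 0.11. FOS (ENSG00000170345, chr14:75278774-75282230, plus strand), the best known immediate early gene, was low in every library, at 1.33, 2.65 and 3.39 CPM with DMSO, 2.58, 2.08 and 3.63 CPM with compound 1 and 2.99, 4.38 and 3.28 CPM with SCH772984. These groups overlapped, and the log2 fold change of FOS with SCH772984 was 0.53 (SE 0.30, 95% interval -0.06 to 1.13, adjusted p = 0.102). Over the alternatives the value ranged from 0.20 (without DMSO replicate 1, adjusted p = 0.573) to 0.82 (without DMSO replicate 3, adjusted p = 0.0305). FOS also passed the test with library size alone (0.70, adjusted p = 0.0319) and with at least 10 counts in every library (0.61, adjusted p = 0.0495), both in edgeR.

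FOSB and BATF3 were below the filter on low counts in the comparisons with DMSO. FOSB (ENSG00000125740, chr19:45467995-45475179, plus strand), another immediate early FOS gene, had 1, 2 and 7 counts with DMSO, 13, 7 and 13 with compound 1 and 8, 17 and 21 with SCH772984. In CPM, DMSO replicate 3 (0.765) was above the lowest library of compound 1 (0.73) and of SCH772984 (0.664), so the groups overlapped. Without the filter, the log2 fold change with SCH772984 was 1.64 (SE 0.60, adjusted p = 0.015) and that with compound 1 was 1.65 (SE 0.63, adjusted p = 0.197). Leaving out DMSO replicate 1 gave 1.21 with SCH772984 (adjusted p = 0.0795), and leaving out DMSO replicate 3 gave 2.78 (adjusted p = 0.00137), so the size of this change was not well determined at this depth. BATF3 (ENSG00000123685, chr1:212686418-212699985, minus strand), known from dendritic cells, had 9, 6 and 9 counts with DMSO, 7, 5 and 1 with compound 1 and 3, 6 and 10 with SCH772984, and its log2 fold changes without the filter were -0.85 (SE 0.61, adjusted p = 0.287) with SCH772984 and -0.90 (SE 0.66, adjusted p = 0.677) with compound 1.

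**Figure D2:**
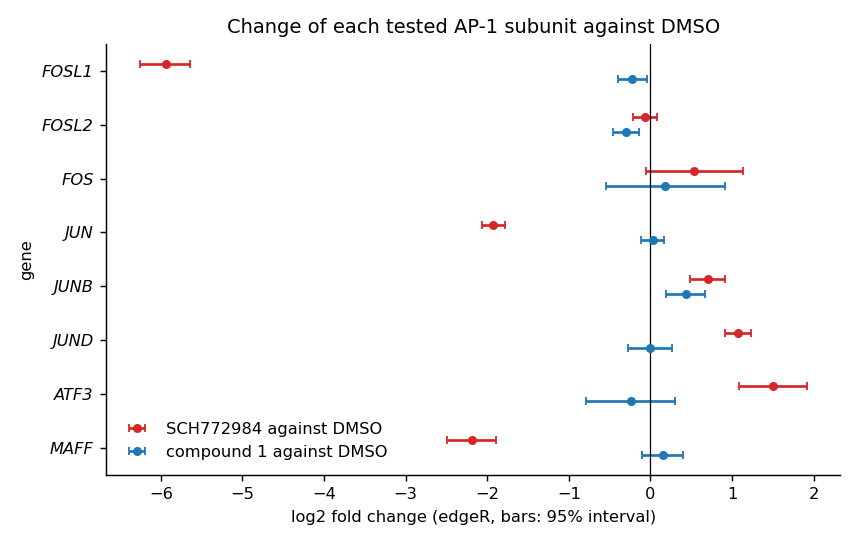
Log2 fold change against DMSO of the 8 tested AP-1 subunit genes with SCH772984 (red) and compound 1 (blue), from edgeR, with 95% intervals as bars. The SCH772984 points range from -5.94 for FOSL1 to 1.5 for ATF3, and the compound 1 points all lie between -0.30 and 0.43.

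The changes with SCH772984 altered the make-up of both families. FOSL1 held 76.3% ± 0.406 of the FOS family RPKM with DMSO and 4.88% ± 2.83 with SCH772984, and FOSL2 held 22.6% ± 0.721 and 87.7% ± 4.02. The FOS share went from 1.04% ± 0.431 to 6.21% ± 1.62. The family total went from 72.4 ± 1.79 to 17.8 ± 0.971 RPKM, and FOS itself from 0.758 to 1.1 RPKM, a change that did not pass the test. Without division by length the FOS family total fell less, from 220 to 227 CPM with DMSO to 111 to 128 with SCH772984. In the JUN family, JUN held 59.7% ± 2.01 with DMSO and 16.5% ± 2.01 with SCH772984, JUND 29.4% ± 2.28 and 65.0% ± 0.934, and JUNB 10.9% ± 0.611 and 18.6% ± 1.4. The JUN family total in RPKM overlapped between these treatments, at 112 to 125 with DMSO and 102 to 119 with SCH772984, but without division by length it did not, at 321 to 351 CPM with DMSO and 220 to 253 with SCH772984. The ratio of FOS family to JUN family RPKM was 0.566, 0.629 and 0.651 in the DMSO libraries and 0.160, 0.164 and 0.15 in the SCH772984 libraries.

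With compound 1, FOSL1 held 76.7% ± 1.34 of the FOS family and JUN 58.1% ± 2.25 of the JUN family, each overlapping with DMSO. The JUNB share was 13.4%, 13.6% and 15.1%, above 10.7%, 10.5% and 11.6% with DMSO. The ratio of FOS family to JUN family RPKM was 0.471, 0.502 and 0.529, below every DMSO library. Without compound 1 replicate 1, the means were 76.0% for FOSL1, 59.2% for JUN, 14.3% for JUNB and 0.515 for the ratio. These shares and ratios describe the libraries and were not tested. They also depend on the division by length: with counts not divided by length, FOSL1 held 46.6% and FOSL2 52.2% of the FOS family with DMSO, and 1.4% and 94.6% with SCH772984. On that scale the FOS share with SCH772984 was 3.04%, the JUN share 73.9% with DMSO and 27.4% with SCH772984, the JUND share 19.2% and 56.8% and the JUNB share 6.96% and 15.9%, and the ratio of the families was 0.665 with DMSO, 0.503 to 0.57 in the compound 1 libraries and 0.467 to 0.509 in those of SCH772984, so that the inhibitors overlapped there.

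**Figure D3:**
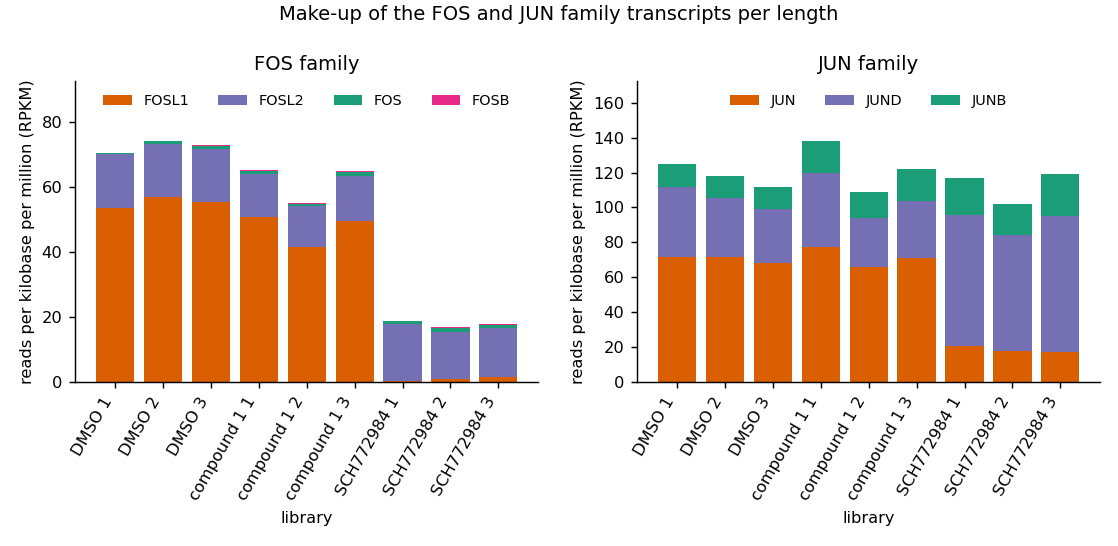
RPKM of the FOS family (left) and the JUN family (right) in each of the 9 libraries, stacked by gene. FOSL1 makes up most of the FOS bar with DMSO and compound 1 and 4.88% on average with SCH772984, where the FOS bars are shorter; the JUN family bars overlap in height on this scale per length, with JUND as the largest part with SCH772984.

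Compound 1 against DMSO gave small differences in AP-1 subunits. None of the 8 tested members passed an adjusted p under 0.05 in the main edgeR fit, 3 had an unadjusted p under 0.05, and DESeq2 called 1, FOSL2. With a replicate block, or without the filter on low counts, edgeR called JUNB higher and FOSL2 lower. Over all 12849 genes tested, 0.864% were called and 15.0% had an unadjusted p under 0.05. The members with an unadjusted p under 0.05 were FOSL2, JUNB and FOSL1, and the same 3 had compound 1 libraries apart from all DMSO libraries, beside 20.9% of all genes tested.

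FOSL2 was at 94.0, 90.6 and 99.1 CPM with compound 1, below the DMSO libraries (116 to 118 CPM), a log2 fold change of -0.30 (SE 0.07, 95% interval -0.46 to -0.14, adjusted p = 0.068). For JUNB the log2 fold change was 0.43 (SE 0.11, 95% interval 0.19 to 0.67, adjusted p = 0.0828), and for FOSL1 -0.22 (SE 0.09, 95% interval -0.40 to -0.04, adjusted p = 0.229). Without compound 1 replicate 1, all 3 passed the test in these directions, and their adjusted p ranged over all alternatives from 0.00268 to 0.334 for FOSL2, 0.0246 to 0.411 for JUNB and 0.0106 to 0.598 for FOSL1. The log2 fold changes of the other 5 tested members had intervals that allow some change: JUN 0.03 (-0.12 to 0.17), JUND -0.01 (-0.28 to 0.26) and MAFF 0.15 (-0.10 to 0.40). The intervals were wider for the low genes, at -0.24 (-0.79 to 0.30) for ATF3 and 0.18 (-0.55 to 0.92) for FOS. Without compound 1 replicate 1 these log2 fold changes were -0.03 for JUN, -0.18 for JUND, 0.04 for MAFF, -0.13 for ATF3 and 0.23 for FOS, and none of these 5 passed the test.

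The inhibitors were also compared directly, in a fit without DMSO. SCH772984 against compound 1 gave 4 members higher and 3 lower of 9 tested, beside 66.3% of 13863 genes called (33.7% higher and 32.6% lower). FOSL1 (log2 fold change -5.71, SE 0.20), JUN (-1.94, SE 0.10) and MAFF (-2.33, SE 0.16) were lower with SCH772984, and JUND (1.09, SE 0.12) and ATF3 (1.75, SE 0.22) were higher, with adjusted p of 6.94e-07 or less (edgeR). These are the members whose response differed between the inhibitors under all alternatives that gave a value. FOSL2 (0.25, SE 0.09, adjusted p = 0.0265) and JUNB (0.29, SE 0.12, adjusted p = 0.0473) were also called higher with SCH772984. The call of FOSL2 was lost in 5 of 15 alternatives: without SCH772984 replicate 1, compound 1 replicate 2 or compound 1 replicate 3, without the filter on low counts and with a 2-fold minimum, with adjusted p up to 0.187. The call of JUNB was lost in 8 of 15 alternatives, among them each of these 5 and the fit without SCH772984 replicate 3, with adjusted p up to 0.236. FOS (0.35, 95% interval -0.23 to 0.94) and FOSB (0.03, 95% interval -0.85 to 0.90) did not pass the test.

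The genes whose levels followed each member most closely over the 9 libraries were found among 9956 protein-coding genes, by Pearson's r of log2 CPM. The libraries share 3 treatments, so any gene that responds to SCH772984 alone correlates with any other, and these values are descriptions. For FOSL1 they were PIMREG (r = 0.9984) and CCNF (0.9983), for JUN PTMA (0.999) and MIS18A (0.9988), and for MAFF CLDN11 (0.9987) and CCNB1 (0.9983), all lower with SCH772984. For JUND they were RAB6B (0.9975) and SMO (0.9941) and for ATF3 KDM5B (0.9956) and RAB31 (0.9935), all higher with SCH772984. The likeness was less close for JUNB, with GNPDA1 (0.9506) and ORMDL3 (0.9423), and for FOSL2, with SEPT3 (0.9463) and FNBP1 (0.9381), which like FOSL2 had their lowest mean with compound 1.

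The members act among other basic leucine zipper genes, kinases and target genes, which were grouped in 7 lists. The counts of each list stand beside the 72.8% of all genes tested that were called with SCH772984 (37.2% higher and 35.5% lower). Of 15 other ATF, CREB, BATF and JDP genes, 13 were tested with SCH772984, 5 rose and 5 fell (76.9% called, near that of all genes), with a median log2 fold change of 0.14. The number that rose was 2 without SCH772984 replicate 1 (median 0.06), 3 without DMSO replicate 1 or SCH772984 replicate 2, and 7 without SCH772984 replicate 3, while 5 fell in each of these. CREB5 (-2.64, SE 0.23), ATF4 (-1.29, SE 0.07), which drives the integrated stress response, ATF1 (-0.82, SE 0.12) and ATF5 (-0.59, SE 0.07) were lower, while ATF3 rose as given above. Of 12 MAF genes and MAF partners, 8 were tested, 4 rose and 2 fell (75.0% called, median 0.22, and 0.40 to 0.45 without any one of the DMSO replicates or SCH772984 replicate 3). The small MAF gene MAFG fell as MAFF did (-1.05, SE 0.08), and MAFK, the remaining small MAF gene, rose (0.74, SE 0.09). Among the partners of small MAF proteins, NFE2L3 fell (-1.77, SE 0.07) and NFE2L1 rose (0.44, SE 0.06).

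Of 19 kinases upstream of AP-1, 17 were tested, 5 rose and 9 fell with SCH772984 (82.4% called beside 72.8% of all genes, median -0.24). RPS6KA4, which encodes MSK2, a chromatin kinase that acts at immediate early genes, fell (-1.25, SE 0.07), as did MAP2K3, an activator of p38 (-1.23, SE 0.08), and RPS6KA2 (1.5, SE 0.23) and MAPK11 (0.89, SE 0.17) rose. Of 9 factors that bind the FOS and JUN promoters, 8 were tested, 2 rose and 4 fell (75.0% called, median -0.33). SRF (-0.86, SE 0.07) and its partner ELK3 (-3.08, SE 0.13), an ERK-regulated ETS factor, fell, and STAT3 (0.56, SE 0.06) and MEF2D (0.55, SE 0.08) rose. Of 8 AP-1 protein partners and turnover factors, 7 were tested, 1 rose and 2 fell (42.9% called, median -0.10), among them COPS5, which rose (0.21, SE 0.08), and the ubiquitin ligase gene ITCH, which fell (-0.21, SE 0.07). With libraries scaled by total counts alone, 1 gene of this last list was called, and no gene of it was called higher without DMSO replicate 1, DMSO replicate 3 or SCH772984 replicate 1. The median of this list was 0.08 with total counts alone, -0.19 without DMSO replicate 3 and -0.06 without SCH772984 replicate 3.

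Of 27 textbook AP-1 target genes, 19 were tested, 4 rose and 13 fell with SCH772984 (89.5% called, beside 72.8% of all genes called and 35.5% lower), with a median log2 fold change of -1.46 beside 0.03 over all genes. Without SCH772984 replicate 3, 2 rose and 13 fell. The chemokine gene CXCL8 was at 136 ± 3.33 CPM with DMSO and 0.746 ± 0.245 with SCH772984 (log2 fold change -7.49, SE 0.14). The urokinase receptor gene PLAUR (-4.04, SE 0.18), the collagenase gene MMP1 (-3.79, SE 0.17) and the cytokine gene LIF (-3.76, SE 0.12) also fell. Among the targets that rose, HMOX1 went from 18.7 ± 5.46 CPM with DMSO to 48.1 ± 3.24 with SCH772984 (1.36, SE 0.15). The others that rose were MMP10, MMP14 and IL11, each averaging under 5 CPM. Each of these genes has other regulators besides AP-1. The 10 MAPK output genes, which report on ERK activity, had 9 tested, of which 8 fell and EPHA4 rose (1.48, SE 0.06). The lower ones included SPRY4 (-6.81, SE 0.11), ETV5 (-6.54, SE 0.15), ETV4 (-5.80, SE 0.21) and EPHA2 (-5.24, SE 0.08). DUSP6, the phosphatase that acts on ERK, had 0, 1 and 0 counts with SCH772984 and was at least 17.7-fold lower against a floor of 3 counts per library. The median of the MAPK output genes was -5.24, and -4.15 with DUSP6 at this bound. Among the 6 of these genes with at least 10 counts in every library, which leaves out those that fell to the lowest counts, it was -1.0. CCND1 is in both of these lists.

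With compound 1, none of the genes in 6 of the 7 lists passed the test in edgeR, and between 0 and 3 per list had an unadjusted p under 0.05, beside 0.864% of all genes called and 15.0% at an unadjusted p under 0.05. Without compound 1 replicate 1, edgeR called 1 kinase gene lower (RPS6KA4, -0.21, adjusted p = 0.0164), 1 promoter factor (SRF, -0.27, adjusted p = 0.0125), 1 partner (MEN1, -0.27, adjusted p = 0.0148) and 3 MAPK output genes (SPRY2, -0.21, EPHA2, -0.23, and EPHA4, -0.20, adjusted p = 0.00132 to 0.0284). EPHA4 was also called lower in edgeR without the filter (adjusted p = 0.0199) and with a replicate block (adjusted p = 0.0294). In the AP-1 target list, 2 of 17 tested genes rose, CXCL8 (0.68, SE 0.07, adjusted p = 0.000157) and PLAU, which encodes urokinase (0.37, SE 0.08, adjusted p = 0.0365). The call of PLAU was lost without DMSO replicate 1, 2 or 3 and without compound 1 replicate 3, each left out alone, which left CXCL8 as the 1 target called. Without compound 1 replicate 1, CXCL8 (0.69) and PLAU (0.29) were still called higher and HMGA1 was called lower (-0.35, adjusted p = 7.35e-06 in edgeR). HMGA1 was also called lower in edgeR without the filter (-0.25, adjusted p = 0.0235) and with a replicate block (-0.25, adjusted p = 0.0454). PLAU fell with SCH772984 (-1.79, SE 0.07), the direction that CXCL8 took. The median log2 fold changes of the lists with compound 1 lay between -0.10 and 0.09, and between -0.07 and 0.02 without compound 1 replicate 1.

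**Figure D4:**
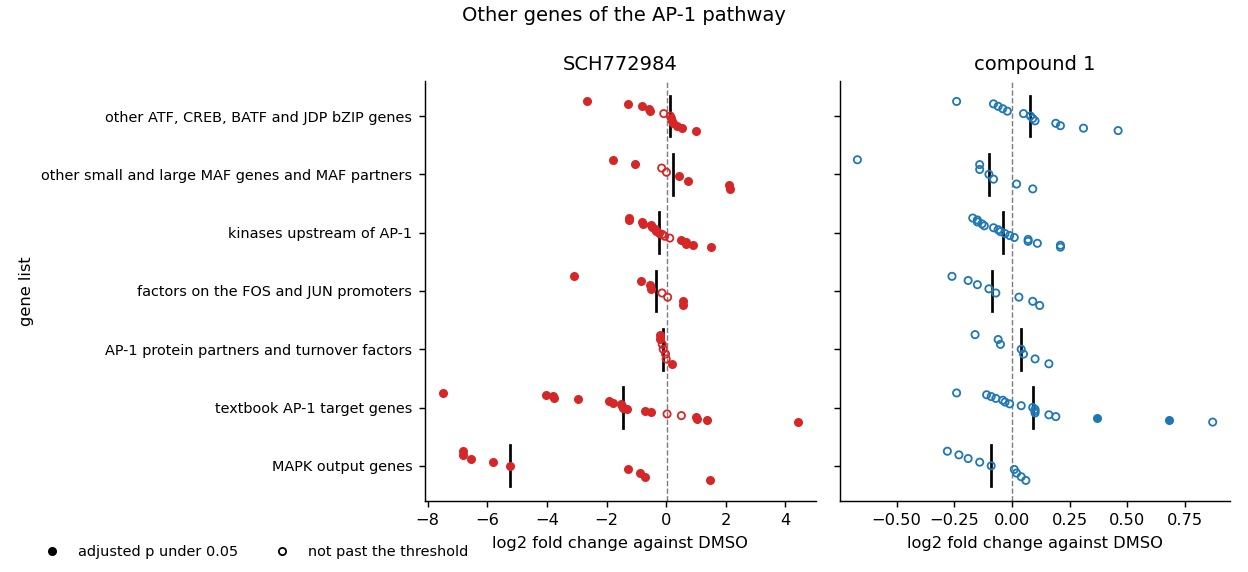
Log2 fold change against DMSO of the tested genes of 7 lists around AP-1, with SCH772984 (left) and compound 1 (right, on a narrower axis); filled points passed an adjusted p under 0.05 and black bars are list medians. The medians of the AP-1 target genes (-1.46) and the MAPK output genes (-5.24) lie furthest to the left with SCH772984; the rightmost point, MMP10, had 0, 1 and 0 counts with DMSO, so the size of its change is not determined.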

How the data were processed

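RNA of 9 MIA PaCa-2 samples was sequenced by Novogene. The authors deposited raw counts per gene, without normalization, in one table of 58735 genes. The submitters' processing notes name HISAT2 2.0.5, featureCounts 1.5.0-p3 and hg38. All gene coordinates matched GENCODE release 29 on GRCh38. The strand setting is not given in the sources used here. Samples were grouped by their labels.

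Each pair of treatments was fitted over all genes in edgeR 4.0.16 (R 4.3.3, quasi-likelihood test, robust) with TMM factors and filterByExpr (minimum count 10, minimum total 15), and a gene was called at a Benjamini-Hochberg adjusted p under 0.05. CPM used TMM factors over all 9 libraries. Standard errors are the log2 fold change divided by the square root of F. They can understate the spread for a gene that falls to few reads, as the range of FOSL1 without single libraries shows. On simulated counts in which 200 genes were given a log2 change of 1, 85.6% of the 194 tested were recovered for SCH772984 against DMSO (13803 genes run) and 87.3% of 197 for compound 1 (12855 genes run). The simulation used the same dispersion for every gene, drew the changed genes from those above a minimum of total reads and left most genes unchanged, unlike SCH772984. Its rates therefore do not carry over to low members such as FOSB. Total counts of 9464432 to 13887859 leave genes under about 10 counts imprecise.

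All members were named, and from each list up to 4 called genes with the largest change among those averaging at least 5 CPM. DUSP6, EPHA4 and MMP10 were named after their values were seen, as were CCND1, HMGA1, HMOX1, IL11, MEN1, MMP14, SPRY2 and the value of PLAU with SCH772984. A gene that the rule also names is not reported here. For each member averaging at least 5 CPM, the 2 genes most like it were named. Members and lists were chosen with earlier results of these data known. Alternatives were library size alone, RLE factors, no filter, a minimum of 10 counts in all libraries of a fit, a joint fit of the 9 libraries, a block for the replicate number, an unadjusted p, an added 2-fold minimum, DESeq2 1.42.0, the omission of each library, and shares without division by length. The replicate numbers gave no clear pairing: deviations of same-numbered libraries from their group means correlated at -0.0787 to 0.107, and those of other pairs at -0.101 to 0.149. These values cannot tell whether same-numbered samples were handled together.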

Additional observations from a re-analysis of the deposited data

How the results depend on the processing

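Of 372 member log2 fold changes recomputed under alternatives, 331 kept their direction and side of the threshold, 14 lost the call, 14 gained it and 13 changed sign. In SCH772984 against DMSO, FOSL1, JUN, MAFF, JUND and ATF3 kept their calls in every alternative that gave a value, and JUNB lost its call only where a 2-fold change was required. FOSL1 has no value with at least 10 counts in every library, since SCH772984 replicate 1 has 9. No sign change concerned a called member, and the cause of each was not tested. FOSL2 with SCH772984 was 0.11 with library size alone and 0.01 with at least 10 counts in every library. With compound 1, FOS was -0.13 without DMSO replicate 1 and -0.07 without compound 1 replicate 3 (range -0.13 to 0.49 over single libraries left out), JUN was -0.03 without compound 1 replicate 1 (range -0.03 to 0.07), and JUND was 0.02 with library size alone, 0.10 without DMSO replicate 1, 0.11 without compound 1 replicate 2 and 0.02 without compound 1 replicate 3 (range -0.18 to 0.11). FOSB between the inhibitors was -0.0 without the filter, -0.12 and -0.14 without SCH772984 replicates 2 and 3, and -0.23 without compound 1 replicate 2 (range -0.23 to 0.29).

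Of 255 counts, 227 were within 1.5 times of the main count. Members called with compound 1, 0 in the main analysis, were 2 without the filter and 2 with a replicate block (JUNB higher and FOSL2 lower in both), 3 at an unadjusted p, 1 in DESeq2 and 0 to 3 when single libraries were left out, with 3 without compound 1 replicate 1. The labels link samples only by a replicate number, and the block changed no other call of a member. With an unadjusted p, the compound 1 counts were 1 for the ATF and CREB list, 2 for kinases, 1 for promoter factors, 4 for AP-1 targets and 3 for MAPK output genes. Requiring a 2-fold change left, with SCH772984, 2 genes of the ATF and CREB list, 3 kinases, 1 promoter factor and 0 partners and turnover factors, and with compound 1, 0 AP-1 targets. The partners and turnover count with SCH772984 was 1 with library size alone, 1 with at least 10 counts in every library, and 1 to 4 when single libraries were left out (1 without DMSO replicate 1). Leaving out single libraries gave, with compound 1, 0 to 1 kinases, 0 to 1 promoter factors, 0 to 1 partners and turnover factors, 1 to 3 AP-1 targets and 0 to 3 MAPK output genes, the highest values all without compound 1 replicate 1; PLAU lost its call without any single DMSO replicate and without compound 1 replicate 3, when CXCL8 was the 1 target called. The MAPK output list with compound 1 had 1 call without the filter and 1 with the replicate block, EPHA4 lower in both. Depth limits FOS, FOSB, BATF3 and, with SCH772984, FOSL1, whose SCH772984 level rests on 9 to 39 reads per library.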
